A study of Mus musculus with 2 samples.

Results

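The regions described here are the isolated probe runs of a mouse DNA methylation tiling array. A run is a set of neighbouring array probes joined wherever the gap between them was at most 500 bp, and it counts as isolated when every other run, down to a lone probe, lies more than 100000 bp away on both sides. Of 18831 runs with at least 2 probes, 18435 lie on autosomes, and 2043 of these (11.1%) were isolated. The comparison set is the other 16392 autosomal runs of at least 2 probes. The rule that picks the members uses positions alone.

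Hypothalamic genomic DNA of female mice was taken at postnatal day 21 (P21) and from newborns (P0), and the ages were set against each other. Both ages were non-agouti animals on a mixed C57BL/6J and C3H/HeJ background, and no treatment is named in the labels. Each of 2 two-colour Agilent arrays, called A and B, carried P21 DNA against P0 DNA. Array A had P0 in red (Cy5) and P21 in green (Cy3), and array B had the dyes the other way round. The study design calls the arrays biological replicates but does not say how many animals gave DNA or whether it was pooled. All p-values thus rest only on differences between 2 arrays, which may be partly technical. In the limma fit, each run's own spread between the arrays is drawn towards a spread shared by all runs. Replicate and dye orientation cannot be told apart. The ratios hold no marker transcripts, so the labelled tissue was not checked.

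DNA methylation in mammals is carried mostly by cytosines followed by guanine, and it is set and removed at many places while a tissue matures. The hypothalamus, a brain region that governs feeding, temperature, stress and reproduction, goes through growth of axons, synapses and glia after birth. The assay, a methylation-specific amplification microarray, cuts 500 ng of DNA with SmaI and then with XmaI. Both enzymes read CCCGGG. SmaI cuts unmethylated copies and leaves blunt ends, XmaI then cuts the methylated copies and leaves overhangs, and adaptors joined to the overhangs let those fragments be amplified. A P21 over P0 ratio above 1 is therefore relatively more amplified DNA from that place at P21, which goes with more methylated sites at the fragment's ends. It is no methylation percentage. In this bulk tissue, a change in the mix of cells and a change within cells cannot be told apart.

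The isolated runs lay on all 19 autosomes and held 9790 probes. Their nearest other run was between 100013 and 3160733 bp away, with a median of 176149 bp. For 1175 of them it lay within 200000 bp, for 647 it lay between 200000 and 500000 bp, and for 221 beyond that. Of all members, 21 stood at the end of a chromosome's probes and so had a neighbour on 1 side only, and they are included in these counts. At the threshold itself, the run chr17:5961775-5963595 was just inside at 100013 bp and had a mean log2 ratio of -0.45. The run chr15:88393338-88394060 was just outside at 99863 bp and had a mean of 0.26.

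In size the isolated runs resembled the rest, with a median span of 586 bp against 612 bp, but their probe numbers were more uniform. Of the isolated runs, 1435 (70.2%) had exactly 4 probes, against 48.4% of the other runs. Runs of 2 probes made up 4.36% of the isolated set and 14.2% of the others, and runs of 3 probes made up 6.66% and 14.2%. Chromosomes 1 and 3 gave the largest shares of isolated runs, 18.5% and 18.8% of their autosomal runs, and chromosome 11 the smallest, 4.86%. All coordinates are those of the array design on mouse build mm8. No gene annotation or sequence of that build was used here, so the runs are named by position and not by gene.

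Both arrays measured 2041 of the 2043 isolated runs. The other 2, chr1:150168039-150168134 and chr3:39077664-39077813, lost both probes to outlier flags. A deposited ratio of exactly 1, a log ratio of 0, was held by 1.43% of isolated probes on array A and 1.81% on array B, against 0.795% and 0.971% of the other probes. In the isolated runs, 92.0 to 94.1% of probes were well above background in each colour of each array, against 94.3 to 95.9% in the other runs.

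Few isolated runs passed the test between birth and day 21, and those that passed mostly gained signal. Of 2041 isolated runs tested, 115 were higher at P21 (5.63%, 95% Wilson interval 4.71 to 6.72%) and 43 were lower (2.11%, 1.57 to 2.83%). These calls come from limma fitted over all 18761 runs tested, with a Benjamini-Hochberg adjusted p under 0.05. Over all runs tested, 7.65% were called higher and 3.99% lower. In the other autosomal runs, 1314 of 16326 were higher (8.05%) and 696 were lower (4.26%). Both shares were thus smaller in the isolated runs than in the background. The Wilson intervals treat runs as independent and cover counting error only, not the spread between animals.

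Large changes were also rarer. By a rule of size that asks for a mean change of at least 2-fold with at least 1.5-fold on each array, 59 isolated runs were higher (2.89%, against 3.71% of all runs tested and 3.88% of the other autosomal runs) and 5 were lower (0.245%, against 0.501% and 0.533%). At least 4-fold gains were called in 7 isolated runs (0.343%) and in 108 other runs (0.662%). Among the called gains themselves, 59 of 115 isolated runs (51.3%) and 636 of 1314 other runs (48.4%) were at least 2-fold, and the median log2 ratio was 1.04 and 0.98, so the called gains were of like size. None of the isolated runs reached 8-fold, whereas 17 other runs did (0.104%). A count of 0 of 2041 still allows a share of up to 0.147%, so the absence of 8-fold gains was not distinguishable from the others at this number of runs.

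The ratios of the isolated runs were packed more tightly around 0. The SD of the mean log2 ratio over runs was 0.37 in the isolated set and 0.46 in the others, and the interquartile range was 0.28 against 0.34. This was not particular to isolation, since the SD was already 0.39 among other runs 50000 to 100000 bp from the next. The arrays correlated over the isolated runs with a Pearson r of 0.673 and a Spearman rho of 0.394, against 0.734 and 0.515 over the other runs. These are descriptions over runs that share 2 arrays and their dyes. The median difference between the arrays was 0.19 in the isolated runs and 0.20 in the others, so array noise was close in both sets while the spread of means was not. At an unadjusted limma p under 0.05 there were 352 isolated runs (17.2%), against 24.7% of all runs tested.

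**Figure D1:**
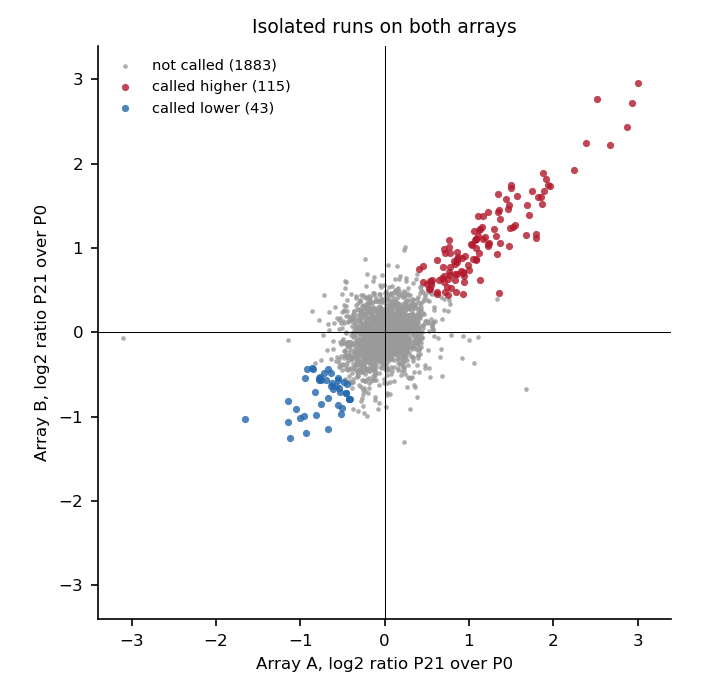
Mean log2 ratio of P21 over P0 of each of the 2041 isolated runs on array A (horizontal) and array B (vertical); red points are the 115 runs called higher, blue points the 43 called lower (limma adjusted p under 0.05) and grey points the rest. Gains reach 3.005 on array A and 2.96 on array B, losses end near -1.65 and -1.26, and a single grey point at -3.11 on array A lies near 0 on array B.

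The mean ratios of isolated and other runs lay close together. On array A the isolated runs had a mean log2 ratio of 0.053 and the other runs 0.039, and on array B the means were 0.022 and 0.0059. The isolated minus other difference was 0.014 on A and 0.016 on B, a mean of 0.015 ± 0.0013 (SD, n = 2 arrays). An exact sign-flip permutation test over the arrays gave a two-sided p of 0.5, which is the smallest that 2 arrays allow. The sign depended on the comparison set: against the 10835 other runs with no run within 2000 bp, the difference was -0.022 on A and -0.056 on B, a mean of -0.039 ± 0.024 (SD, n = 2).

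The other runs were of mixed spacing. Another run lay within 2000 bp of 5491 of them (33.6%), and these had a mean log2 ratio of -0.085, with 6.03% called higher and 7.30% called lower. The 10835 without such a close neighbour had a mean of 0.077, with 9.07% higher and 2.72% lower. Set against these, the share of isolated runs differed by -3.44 percentage points for gains and by -0.62 percentage points for losses.

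Among runs without a close neighbour, the share with a gain was smaller at greater distances. At a nearest distance of 2000 to 5000 bp, 11.3% of runs were called higher, and the share was 10.2% up to 10000 bp, 9.56% up to 20000 bp, 8.26% up to 50000 bp and 7.20% up to 100000 bp. Inside the isolated set it was 6.22% of 1174 runs up to 200000 bp and 5.88% of 646 runs up to 500000 bp. Beyond 500000 bp, 4 of 221 runs were called higher (1.81%, 95% Wilson interval 0.706 to 4.56%). Within the isolated set the intervals of neighbouring classes overlap, and the low share of the last class rests on 4 calls.

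Of runs 2000 to 5000 bp from the next, 2.81% were called lower, and the share was 3.09% up to 10000 bp, 2.62% up to 20000 bp, 2.75% up to 50000 bp and 2.40% up to 100000 bp. Within the isolated set it was 2.13% up to 200000 bp and 2.48% up to 500000 bp. Beyond 500000 bp there were 2 of 221 (0.905%, 0.249 to 3.24%), the lowest share of these classes. No test was made between the slopes of gains and losses. The SD of the ratio over runs went from 0.50 at 2000 to 5000 bp to 0.39 just beyond 100000 bp and to 0.27 beyond 500000 bp.

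**Figure D2:**
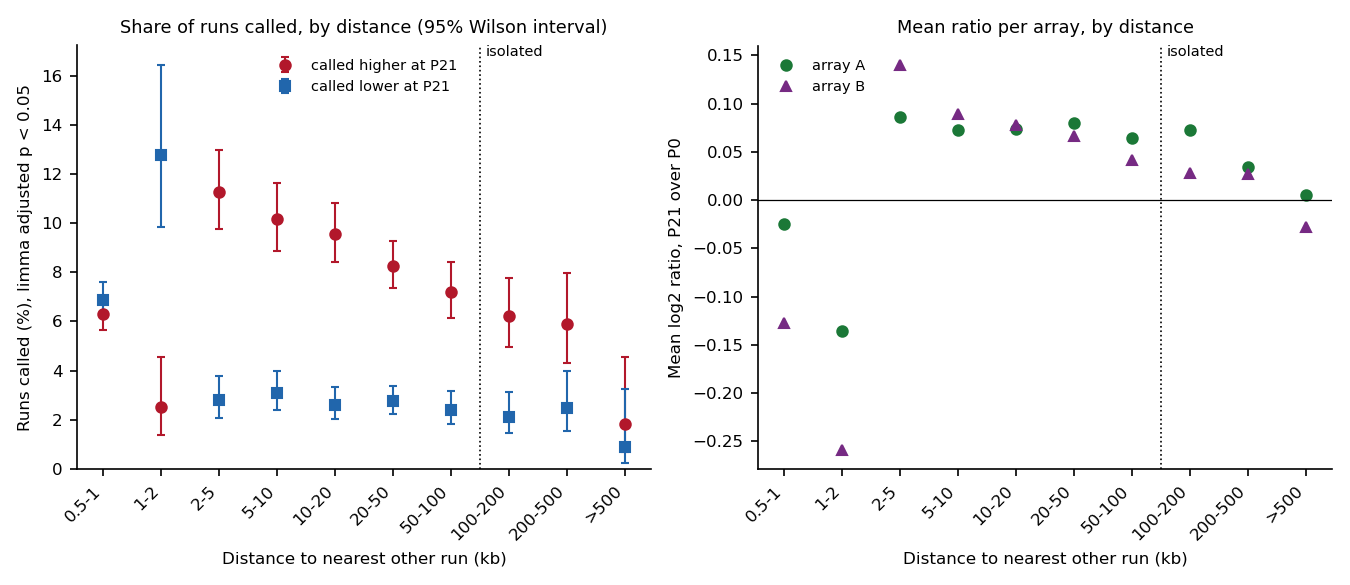
Left, percent of autosomal runs called higher (red circles) or lower (blue squares) at P21, with 95% Wilson intervals, in classes of distance to the nearest other run (axis in kb); right, mean log2 ratio per class on array A (green circles) and array B (purple triangles). Gains fall from 11.3% to 1.81% to the right of the second class, the dotted line marks the threshold of 100000 bp, and both arrays have negative means only in the closest classes and, on array B, in the most distant one.

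Probe number moved with distance, so the classes were repeated over runs of exactly 4 probes. There the share called higher was 5.34% at 500 to 1000 bp and 4.76% up to 2000 bp, then 11.04% in the class of 2000 to 5000 bp and 7.79% in the last class below the threshold. Among isolated runs it was 6.34% of 804 up to 200000 bp, 6.53% of 475 up to 500000 bp and 2.56% of 156 beyond. The last share rests on 4 runs, and its interval of 1.002 to 6.41% overlaps those of the other isolated classes.

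Taken over all probe numbers, isolated runs were dimmer at both ages. Their mean log2 processed signal lay below that of the other runs by 0.27 at P21 (difference -0.27 ± 0.0015, SD, n = 2 arrays) and by 0.29 at P0 (-0.29 ± 0.0033). Against the other runs without a neighbour within 2000 bp, the difference was -0.86 ± 0.0071 at P21 and -0.82 ± 0.036 at P0. Brightness fell with distance too, from a mean log2 signal of 10.6 in the class of 2000 to 5000 bp to 9.596 in the nearest isolated class and 8.97 beyond 500000 bp. Signal depends on the probe's sequence and on how well a fragment amplifies as well as on methylation, and these were not separated here.

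Because calls depend on signal, the shares were read within 5 classes of brightness of equal size. In each class the isolated runs had a smaller share of gains than the other runs. In the dimmest class it was 2.16% against 3.86%, in the second 3.99% against 6.47%, in the third 8.21% against 10.4%, in the fourth 10.4% against 13.0% and in the brightest 4.70% against 6.33%. Their share of losses was also smaller in each class, from 5.41% against 8.97% in the dimmest to 0.248% against 1.16% in the brightest. Gains were most frequent at middle to high brightness in both sets, and losses at low brightness.

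**Figure D3:**
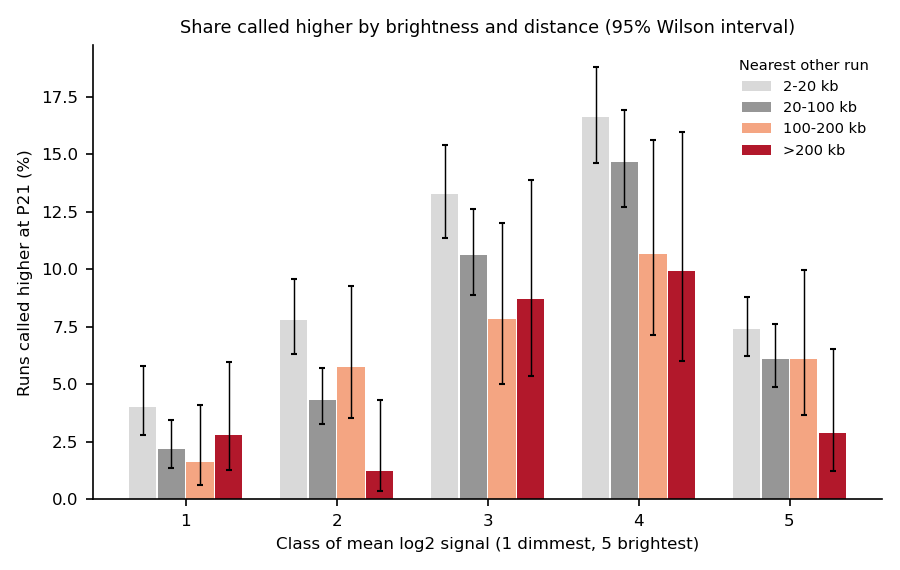
Percent of runs called higher at P21 in 5 classes of mean log2 signal, for runs whose nearest other run lies 2000 to 20000 bp, up to 100000 bp, up to 200000 bp or farther away; bars are shares and lines their 95% Wilson intervals. The bars of the most distant runs lie below those of the nearest class in every brightness class, for example at 9.93% against 16.6% in class 4, and many intervals overlap. Beyond 200000 bp the share is higher than in the class before it in brightness classes 1 (2.79% against 1.62%) and 3 (8.72% against 7.83%).

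All 43 losses lay in runs of 2 to 4 probes. Of 383 isolated runs with more than 4 probes, 24 were called higher (6.27%, against 9.905% of other runs of this size) and limma called none lower, where a count of 0 allows a share of up to 0.783%. At an unadjusted p under 0.05, 13 of them were lower, and limma's trend and robust settings called 4. Among other runs with more than 4 probes, 65 of 3786 (1.72%) were called lower. The isolated runs of 2 probes had a mean of -0.015, against -0.13 in the other 2-probe runs. Of these 87 isolated runs, 1 was called higher (1.15%) and 2 were called lower (2.30%), against 4.41% and 8.96% of the other 2-probe runs. They were also brighter, with a mean log2 signal of 10.2 against 8.504. Among all other runs, the mean ratio was -0.13 in the dimmest class and 0.0802 in the brightest. Runs of 2 or 3 probes made up 66.99% of runs 500 to 1000 bp from the next, against 8.104% at 2000 to 5000 bp. Brightness and close neighbours thus differed along with isolation, and their parts in this contrast were not tested.

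Gains in isolated runs were spread over 18 of the 19 autosomes. Chromosome 9 had 11 of 110 isolated runs called higher, where 8.02% of its other runs were. Chromosome 8 had 11 of 114 (9.65%, against 10.1% of its other runs), and chromosome 12 had 3 of 118 (2.54%, against 10.1%). On chromosome 17, limma called none of 70 in either direction, which allows a share of up to 4.29%, while 7.34% of its other runs were higher and 4.73% lower. There 8 runs had an unadjusted p under 0.05, limma's trend and robust settings called 5, and the run means lay between -0.47 and 0.40. No test was made between chromosomes.

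Most of the 115 gains held for every probe of the run. In 99 of them every probe was above 0 on both arrays, though the runs were called on the mean of these same probes. In 100 of the 115 all probes were well above background in both colours of both arrays. That held for 79.6% of all isolated runs tested and 82.1% of all runs tested. Their median log2 ratio was 1.04 and their median brightness 10.3, above the 9.66 of all runs tested. In 1 of the gains no probe was well above background at P0 on either array.

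The highest gain lay at chr2:10160612-10160958, where the log2 ratio was 3.005 on the first array and 2.96 on the second. Its 4 probes span 347 bp and the nearest other run is 128512 bp away. The mean was 7.90-fold higher at P21, with a limma adjusted p of 0.000220. Both arrays gave nearly the same ratio, and the signal rose from 10.8 at P0 to 13.8 at P21 on array A, both far above background.

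The run chr10:44575042-44575759 followed, at 2.94 (A) and 2.72 (B), a 7.10-fold gain (limma adjusted p = 0.000250). At chr5:106559784-106560302 the ratios were 2.87 and 2.43, a 6.29-fold gain (adjusted p = 0.000337 by limma). For chr9:100082004-100082410 array B gave the higher value, 2.77 against 2.52 on array A, a 6.25-fold gain. Each of these runs has 4 probes, and the lowest single probe among them still read 2.01.

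The other 3 isolated runs past 4-fold lay on chromosomes 18, 11 and 12. Of these, chr18:55314500-55315020 read 2.67 and 2.22 (5.45-fold), with its first probe lowest on both arrays at 1.73 and 1.12. The run chr11:52730427-52731347 read 2.39 and 2.25 (4.99-fold). At chr12:45937153-45937536 the arrays read 2.24 and 1.92 (4.23-fold), and this run has no other run within 736992 bp, the most remote of the leading gains.

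The last of the 10 leading gains were smaller. At chr4:102822600-102822986 the arrays gave nearly the same ratio, 1.88 and 1.89 (3.69-fold). The longer runs chr13:63910306-63911732 and chr7:118783603-118785206 have 8 probes each and spans of 1427 and 1604 bp. The first read 1.91 and 1.81 (3.64-fold) and the second 1.96 and 1.74 (3.60-fold). All 10 passed at limma adjusted p of 0.000529 or less, and in all 10 every probe was well above background at both ages.

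Within the 8-probe runs the ratio was uneven. In chr13:63910306-63911732 single probes went from 1.28 to 2.76 on array A and from 1.103 to 2.69 on B, high in the first 4 probes and lower in the last 4. In chr7:118783603-118785206 they went from 0.59 to 3.05 on A and from 0.46 to 2.74 on B, with the last probe lowest on both arrays. The arrays shared the broad profile in both runs but not every detail. In the run on chromosome 7, array A was highest at 244 bp from the centre (3.05) and array B at -128 bp (2.74).

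**Figure D4:**
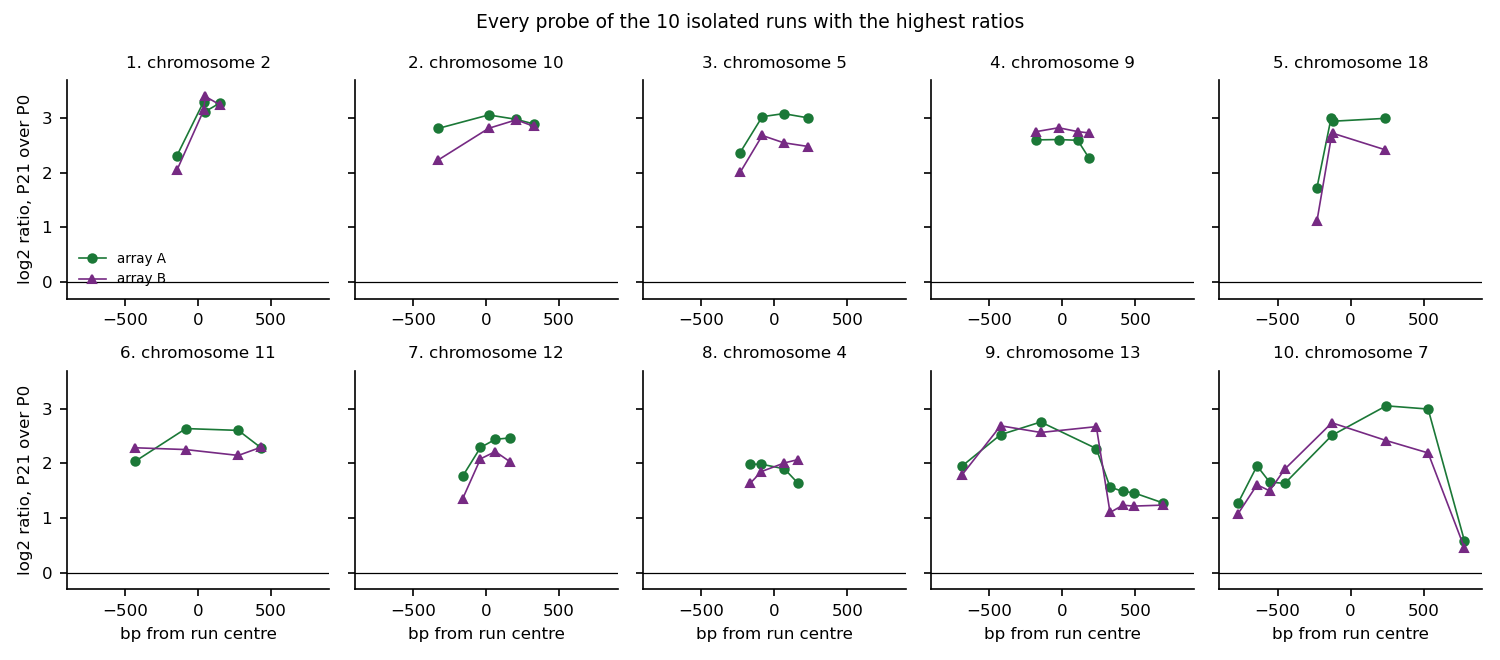
Log2 ratio of P21 over P0 of every probe in the 10 isolated runs with the highest means, against the distance of the probe from the run's centre in bp, on array A (green circles) and array B (purple triangles); panels are numbered in order of the mean. Every probe lies above 0 on both arrays. In several 4-probe runs, most of all on chromosome 18, the first probe is lower. The 8-probe runs on chromosomes 13 and 7 change level along their length.

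Over all isolated runs of these sizes, the first and last probes were closer in runs of 4 probes than in runs of 8. In the 1366 runs of 4 probes with all probes kept, the mean of the first 2 probes correlated with that of the last 2 at r = 0.909, and these means differed by a median of 0.059. In the 179 runs of 8 probes the first 4 and the last 4 correlated at r = 0.567 and differed by a median of 0.21. The gap in the middle of the 8-probe runs had a median of 143 bp, against 77 bp between their other probes. Of 14 such runs called higher, 6 were at least 2-fold up over both the first 4 and the last 4 probes, and 5 over 1 of these sets.

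The 43 losses were shallower and dimmer than the gains. Their median log2 ratio was -0.65, their median brightness 7.07, and 37 of the 43 were below the median brightness of all runs tested. In 34 every probe was below 0 on both arrays, but in only 21 were all probes well above background throughout. In 3 no probe was well above background at P21 on either array. Low signal thus moved with the losses. With only probes well above background in both colours of both arrays, limma called 60 of 1887 isolated runs lower (3.18%, against 7.44% of the other runs), and 31 of these were among the 43.

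The lowest called mean was at chr9:11676856-11676958, which read -1.65 (A) and -1.03 (B). This run has 2 probes within 103 bp, and at P21 neither was well above background on array A. Only array B measured the P21 level, so no fold is given for the mean (limma adjusted p = 0.00467). The run chr11:32633023-32634132 was clearer, with -1.12 and -1.26, a 2.28-fold loss with all 4 probes well above background at both ages (limma adjusted p = 0.00225).

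A second run on chromosome 11, chr11:33411799-33413091, read -1.14 and -1.06. At P21 none of its 4 probes was well above background on array A and 1 was on array B. At P0 only 1 was on array A and 2 were on array B. Both levels were thus partly unmeasured, and its fold is not given. Single probes on array A went from -3.69 to 0. At chr6:134178306-134178762 the ratios were -0.93 and -1.20 over 3 kept probes, a 2.09-fold loss in the mean. At P21 only 2 of the 3 were well above background on array A and 1 on array B. Single probes on array B went from -2.61 to 0, so this fold rests partly on signals not well above background. The run chr9:42746594-42747191 read -1.01 on both arrays, a 2.01-fold loss with every probe well above background. These are the 5 called losses with a mean log2 ratio of -1 or lower, and 2 of them, chr11:32633023-32634132 and chr9:42746594-42747191, had every probe well above background at both ages.

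The other 5 of the 10 lowest had means above -1. The run chr10:69267491-69268552 read -1.15 and -0.82, chr1:131594278-131595139 read -1.05 and -0.91, and chr1:153497268-153497544 read -0.95 and -0.99. All 3 had fewer than 4 of 4 probes well above background at P21. At chr9:70661854-70663017 the ratios were -0.67 and -1.14, and this run was the brightest of the 10, at a log2 signal of 8.79 and 8.65 at P21 with all probes above background. At chr13:20405726-20407144 they were -0.81 and -0.98, but neither of the 2 probes kept, of 4 designed, was well above background at P21. The loss there is put at 1.15-fold or more. At P0 both probes were well above background on array A but only 1 on array B, so the P0 side of this bound is partly unmeasured too. That bound sets the P0 mean against, on each array, the higher of the dim probe's signal and the lowest signal among probes well above background, and it is open to dye bias.

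**Figure D5:**
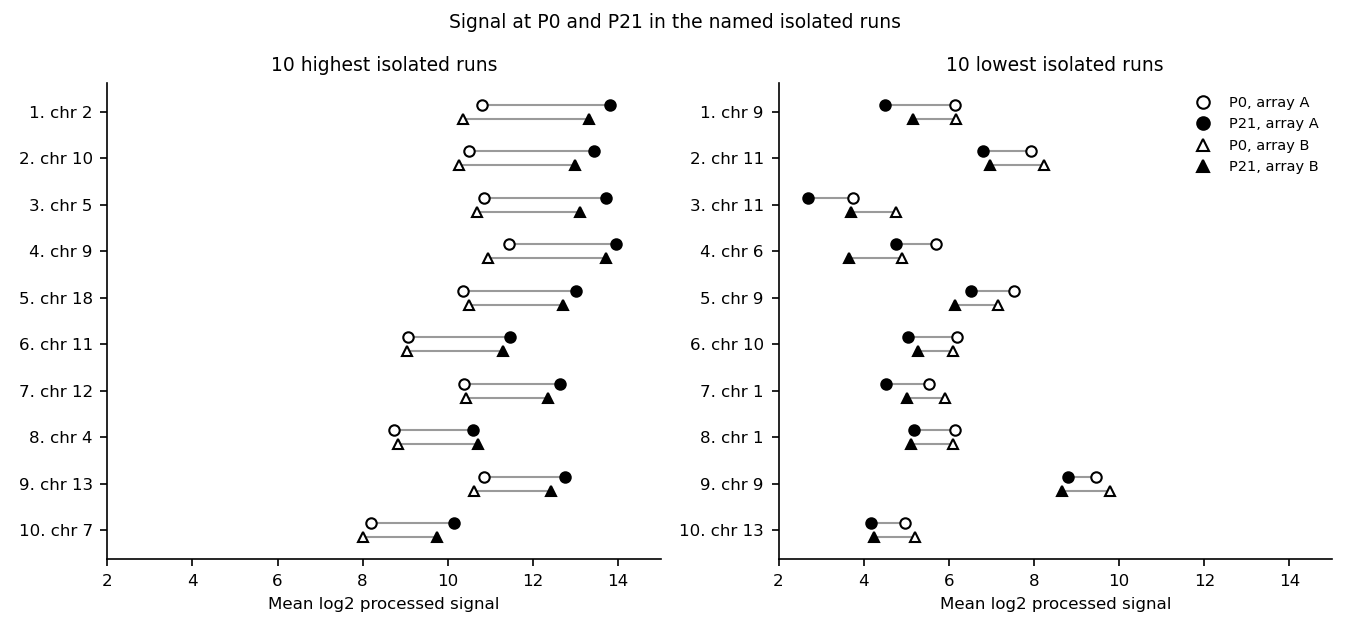
Mean log2 processed signal at P0 (open) and P21 (filled) on array A (circles) and array B (triangles) for the 10 isolated runs with the highest ratios (left) and the 10 with the lowest (right). At P0 the gains start between 8.01 and 11.4 and at P21 they reach 9.75 to 14.0, whereas 9 of the 10 losses lie at 8.23 or below at both ages.

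Among the treatments of the values, the number of losses fell most with another background correction. With normexp correction of the spot and background signals at an offset of 50, followed by loess, 86 isolated runs were called higher and 9 lower, and 78 and 7 of these were among the calls above. Of the 10 highest runs 9 kept an adjusted p under 0.05 in that limma fit, and chr7:118783603-118785206 did not (1.03, adjusted p = 0.0593). Of the 10 lowest, chr9:70661854-70663017 alone still passed (-0.49, adjusted p = 0.0249 by limma), and the means of all 10 lay between -0.49 and -0.11. With loess alone on the processed signals, limma called 51 isolated runs lower, and all 10 lowest runs still passed. With normexp and no loess it called 1 lower, and none of the 10 lowest passed. In that setting the arrays correlated at r = -0.051. Correction and offset always changed together, and the part of each was not tested.

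Runs beside an isolated gain were called no more often than runs beside the other isolated runs. The 20 runs on either side of the 10 highest isolated runs had log2 ratios between -0.45 and 0.27. Over all 115 gains, 10 of 230 flanking runs were called higher (4.35%) and 5 were lower (2.17%). Beside isolated runs that were not called, 230 of 3746 flanking runs were higher (6.14%) and 116 lower (3.097%). Some flanking runs are shared by 2 isolated runs and some are isolated themselves.

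The ratios of consecutive isolated runs showed next to no correlation. Over 969 pairs of consecutive isolated runs, a median of 312030 bp apart, the means correlated at r = -0.042 and rho = -0.022. For neighbouring runs in general, r was 0.485 at gaps of 500 to 1000 bp (1681 pairs), 0.189 up to 2000 bp and 0.096 up to 5000 bp. Beyond 100000 bp, the spacing at which isolated runs stand, it was 0.014 up to 200000 bp (2442 pairs) and 0.020 beyond 500000 bp (964 pairs). Such low values were not particular to that spacing, since r was 0.012 at 10000 to 20000 bp, 0.061 up to 50000 bp and 0.017 up to 100000 bp. These are descriptions over runs, which are not independent.

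The 5 most remote isolated runs had ratios near 1. The run with the greatest distance was chr8:55576057-55576282, which has no other run within 3160733 bp, and it read 0.21 (A) and -0.24 (B). At chr5:84525229-84525498 (2429571 bp) the ratios were -0.02 and -0.06, and at chr3:73760942-73761328 (2398849 bp) they were 0.10 and -0.12. The run chr2:97480478-97480605 (2361406 bp) read 0.24 and -0.07, and chr4:37630507-37630758 (2284227 bp) read -0.07 and 0.01. In limma's test they had adjusted p from 0.811 to 0.981. All 5 were well above background in every probe, with P21 signals between 9.19 and 13.9. The run on chromosome 8 was the dimmest of them and lay below the median brightness of all runs tested, 9.66.

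Of the isolated runs beyond 500000 bp, 6 were called, and they are named here after their values were seen. Besides chr12:45937153-45937536, the gains were chr18:71788583-71789088 with 1.04 on both arrays (2.05-fold), chr15:67932443-67933101 with 1.05 and 0.86 (1.94-fold), and chr16:72652523-72653029 with 0.85 and 0.87 (1.82-fold). The run on chromosome 16 has no other run within 1641332 bp. It was dim, with P0 signals of 5.91 (A) and 6.06 (B), and 3 of its 4 probes were well above background at P0 on array B. The losses were chr11:47221390-47222693 with -0.56 and -0.87, and chr6:96081295-96082379 with -0.41 and -0.79 at an adjusted p of 0.0479 by limma, just past the threshold. In the chromosome 11 run, 3 of 4 probes were well above background in each colour of each array. Beyond 500000 bp, limma called 5 gains and 0 losses with normexp and loess, and 1 gain and 0 losses with normexp alone.

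In 3 isolated runs the arrays disagreed by 1.5 or more on the log2 scale, and these too were picked after their values were seen. At chr8:13287499-13288451 all 8 probes were low on array A, from -3.48 to -2.52, and near 0 on array B, from -0.21 to 0.21, with every probe well above background at both ages. At chr2:130851204-130851817 array A read 1.67 and array B -0.67 over 4 bright probes. Within each array the probes of these runs lay close together, and DNA sample and dye cannot be told apart as the source of the difference. At chr5:101515212-101515516 the arrays read 0.23 and -1.30, with no probe well above background in any colour. Their limma adjusted p lay between 0.168 and 0.604.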

How the data were processed

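Per the file headers, Agilent Feature Extraction 10.5.1.1 wrote the deposited scanner files, and version 9.1.3.1 stands in the submitters' processing notes. Per the same file headers, background was subtracted, spatial trends were removed and dyes were scaled linearly before the deposited log10 ratio of red over green was taken. The deposited intensity values, linear in scale, are processed signals and medians of spot and background. Deposited 0 or 1 flags for background and outliers were used as given. The authors' processed table of log10 ratios was an alternative.

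Log ratios were multiplied by log2(10), turned on array A to P21 over P0 and centred on each array's median, with no loess. Outlier spots were left out, probes were averaged per run, and runs of at least 2 kept probes were tested with limma 3.58.1 (lmFit, eBayes) in R 4.3.3, with Benjamini-Hochberg adjustment over 18761 runs. The fit was tested on simulated data. Both arrays lie on 1 slide and 1 scan, so no slide block was possible. The number of arrays limits the precision. Named runs are the 10 highest and 10 lowest called with the same sign on both arrays and the 5 most distant. The remaining part of the rule, runs matched to a gene by sequence, named none, because no probe sequences were used here. The members and tests were chosen with earlier results of these data known. Alternatives were other background corrections, dye normalisations, probe filters, moderation, distances, gaps, probe numbers and each array alone. Wilson intervals use a 95% level. The share that a count of 0 is said to allow is not a Wilson limit but 3 divided by the number of runs.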

Additional observations from a re-analysis of the deposited data

How the results depend on the processing

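Of 137 alternative values of the comparisons, 75 stayed close to the reported one, within 1.5 times for a count, within 1 SD over the arrays for a difference in mean or signal, and within 0.5 of the width of the isolated share's 95% Wilson interval for a difference in percent. Leaving out the centring changed no call, since the deposited ratios are already centred, and the authors' table holds the same ratios rounded, so these 2 add no independent check. In all 9 alternative treatments of the values, the isolated runs had a smaller share of gains than the other runs and a smaller spread, and runs beyond 500000 bp had a smaller share of gains than runs at 2000 to 20000 bp. Their share of losses was smaller in 8 of the 9, the exception being normexp without loess. Where a value below changed, the cause was not tested.

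The count of isolated gains was 20 with normexp without loess, a setting in which the arrays correlated at r = -0.051, and 59 by the rule of size. Isolated losses numbered 9 with normexp and loess, 1 with normexp alone, 13 with the median of a run's probes, 73 with trend and robust settings, 60 with probes well above background and 5 by the rule of size. Runs called over the whole array were 2184 in the fit as reported, 1421 with normexp and loess, 280 with normexp alone, 1251 with the median of probes and 3379 with trend and robust settings. By the rule of size, normexp and loess left 31 isolated gains and 0 losses, and normexp alone left 0 losses. At an unadjusted limma p under 0.05, 352 isolated runs stood out in either direction. Calls were 72.8% gains as reported, 90.5% with normexp and loess, 95.2% with normexp alone and 86.9% with the median of probes.

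The isolated minus other mean log2 ratio turned negative with normexp alone (-0.0071), distances over 200000 bp (-0.0042), gaps of at most 250 bp (-0.016) or 1000 bp (-0.027), neighbours of at least 2 probes (-0.0085), runs of exactly 4 probes (-0.035) and other runs without a neighbour within 2000 bp (-0.039), the last added after seeing the data. It stayed positive but moved with normexp and loess (0.0098), loess on processed signals (0.018), probes well above background (0.018), the median of probes (0.017), distances over 50000 bp (0.027), runs of 2 to 4 probes (0.023), 10 brightness classes (0.024) and runs with neighbours on both sides (0.017, added after seeing the data).

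The difference in percent called higher, -2.41 points as reported, was -4.55 with gaps of at most 250 bp, -1.30 with the median of probes, -0.60 with normexp alone and -3.44 against runs without a close neighbour. The difference in percent called lower, -2.16 as reported, was 0.043 with normexp alone, -1.15 with gaps up to 1000 bp, -3.71 with loess, -0.88 with the median of probes, -0.62 against runs without a close neighbour, -4.26 with probes well above background, -0.71 in runs of 4 probes and -4.73 with trend and robust settings.

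Isolated runs of exactly 2 or exactly 3 probes were brighter than other runs of that size. In the alternatives listed here, the signal difference stayed negative. At P21 and P0 it was -0.75 and -0.72 with gaps up to 1000 bp, -0.047 and -0.031 with gaps up to 250 bp, -0.21 and -0.22 as a mean over autosomes, -0.52 and -0.51 with neighbours of at least 2 probes, -0.36 and -0.36 over 200000 bp, -0.12 and -0.15 over 50000 bp, -0.86 and -0.82 against runs without a close neighbour, -0.19 and -0.21 with probes well above background, -0.099 and -0.12 in runs of 2 to 4 probes, and -0.85 and -0.82 in runs of 4.

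With each array alone, which gives values and no test, the rule of size gave 59 to 68 isolated gains and 7 to 8 losses, and the ratio difference was 0.014 to 0.016. Of the named gains, normexp alone lost chr7:118783603-118785206 and chr4:102822600-102822986, and of the named losses all 10. The median of probes lost chr11:33411799-33413091 and chr9:70661854-70663017. With probes well above background, 6 of the 10 named losses had no value. Classes of base composition were not run, since no probe sequences were used here. No paired analysis was possible because each array already holds the pair as 1 ratio, so a replicate block has nothing to act on.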
